A study of Mus musculus with 6 samples.

Results

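The normal mouse head at E9.0 was described from the 3 wild-type (WT) libraries among the 6 libraries of the series. They were chosen by the genotype in their labels, *Snrpb* +/+, and the 3 libraries of heterozygous embryos were left out. Each WT library came from a pool of 2 heads, matched for somite number (11 to 13 pairs in the study) and taken from different litters. The labels give the strain as C57BL/6, name CD1 as well, and list no treatment. The methods of the study state a mixed CD1 and C57BL/6J background for its embryos. The sources used here do not state whether any of these heads carried the Cre transgene of the colony or an intact *loxP*-flanked copy of *Snrpb*. Total RNA depleted of ribosomal RNA was sequenced, and the reads were counted per gene. The pools are WT1, WT2 and WT3 below, and where 3 values are given together they stand in that order.

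At this age the head holds all of the tissues that will build the brain and the face, packed into a small mass of dividing cells. The neural tube has closed over much of its length and is divided into forebrain, midbrain and hindbrain, each marked by its own transcription factors. Neural crest cells, which leave the dorsal neural tube, fill the pharyngeal arches around cores of mesoderm, between an outer layer of ectoderm and an inner layer of endoderm. Primitive red cells made in the yolk sac have begun to circulate, and the heart lies just beneath the head. The sources used here do not state where the heads were cut, and the effect of the cut on the pools was not tested.

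The libraries held 36378803, 58946111 and 37349643 counts over 24421 gene symbols. Levels of 1 gene are in CPM (counts per 1000000 counts of a library, adjusted by edgeR's TMM factors), and levels of different genes are compared in TPM, in which the counts are first divided by the length of the gene's exons. A level of 1 CPM stood for 37 counts in the shallowest library, for which the exact Poisson 95% interval ran from 0.711 to 1.39 CPM. Intervals and floors of this kind cover counting error only. Whether fewer cells of a type or less RNA in each of them lowered a value cannot be told apart in such bulk samples.

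In all 3 pools 12729 genes (52.1%) reached 1 CPM, 9073 reached 10 CPM, 2222 reached 100 CPM and 79 reached 1000 CPM. At the other end, 4361 genes (17.9%) had no count in any pool. Among the 20502 protein-coding genes, 12266 reached 1 CPM in every pool and 2993 had no count. A mean of 1 CPM or more over the pools was reached by 13073 of all genes (53.5%), 12556 of them protein-coding. The 100 most abundant genes took 19.03% ± 0.46 (SD, n = 3) of the counts and the 1000 most abundant took 51.6% ± 0.39.

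**Figure D1:**
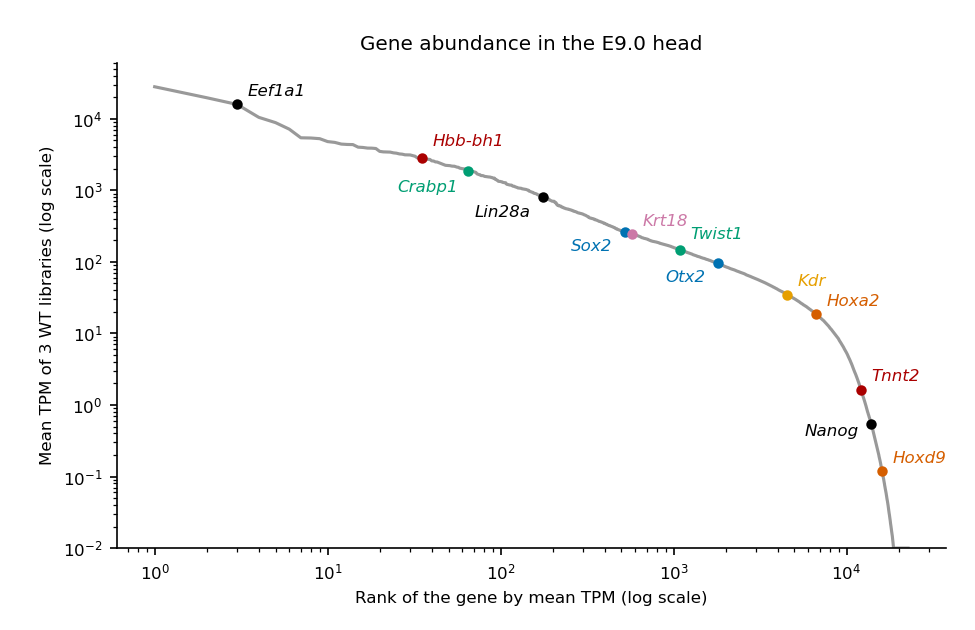
Mean TPM of each gene over the 3 WT libraries against its rank, both on log scales, with values under 0.01 TPM drawn at 0.01 and selected genes of the text marked. *Eef1a1* stood at rank 3, the embryonic globin gene *Hbb-bh1* at 35, the neural gene *Sox2* at 523, *Otx2* at 1801 and *Hoxa2* at 6702, while *Nanog* and *Hoxd9* lay on the steep fall below 1 TPM.

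The most abundant messages were those of growth. By TPM the first protein-coding gene was *Eef1a1* (chr9:78478449-78489151, mm10), which brings transfer RNA to the ribosome, at 15808 ± 162 TPM (SD, n = 3). Among the first 25 were 10 genes of ribosomal proteins, led by *Rplp1* (8806 ± 332 TPM) and *Rplp0* (5372 ± 40.4 TPM), and 6 histone genes. Histone messages lack the poly(A) tail and are kept by a library made from ribosome-depleted total RNA. Ribosomal protein genes together took 6.66% ± 0.10 of the counts and histone genes 2.16% ± 0.051. The remaining places included *Actb*, *Tubb5*, the chaperone *Hsp90ab1*, *Ptma*, *Npm1* of the nucleolus, *Eef2*, the glycolytic enzyme *Pkm* and *Mif*. These are housekeeping functions, and the CPM of most of these genes spread little between the pools. The CV was 2.02% for *Eef1a1* and 0.699% for the histone gene *Hist2h2bb*. It was larger for the histone genes *Hist1h4k* (13.8%), *Hist1h4h* (13.4%) and *Hist1h4f* (14.1%). Histone levels of single genes are uncertain, since 64.3% of the 100-base windows of *Hist1h4k* and 45.4% of those of *Hist2h2bb* also occur in transcripts of other genes.

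Genes of the cell cycle stood high. The 26 genes listed for proliferation had a median of 170 TPM, at the 96.0th percentile of the 22697 genes ranked, against a median of 19.9 TPM for all genes of 1 CPM or more. The replication clamp *Pcna* reached 599 ± 12.6 TPM, *Rrm2*, which makes deoxyribonucleotides, 564 ± 45.7 TPM, and the helicase subunit *Mcm5* 509 ± 16.8 TPM. Of the 26, 25 were at 1 CPM or more. The cell cycle inhibitors differed among themselves, for *Cdkn1c* stood at 142 ± 16.8 TPM, *Cdkn1b* at 30.4 ± 2.79 TPM and *Cdkn1a* at 1.39 ± 0.635 TPM, and *Cdkn2a* was under 1 CPM in every pool.

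Glycolysis was as prominent. *Pkm* (3425 ± 77.4 TPM), *Ldha* (2990 ± 107 TPM), which turns pyruvate into lactate, and *Aldoa* (2094 ± 60.1 TPM) were all within the first 60 genes by TPM, and the glucose transporters *Slc2a1* (520 ± 59.5 TPM) and *Slc2a3* (468 ± 29.4 TPM) were also high. The form of lactate dehydrogenase typical of oxidative tissue, *Ldhb*, was at 91.4 ± 16.0 TPM. Genes of the response to low oxygen were spread more widely, from *Bnip3* at 145 ± 17.6 TPM to *Car9* at 1.14 ± 0.125 TPM. The enzyme gene *Eno1* was listed at only 1.45, 1.48 and 1.89 CPM, and 59.0% of its windows occur in other genes' transcripts, so its level is uncertain.

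Genes of the early embryo fell into a group that was on and a group that was off. The RNA-binding genes *Lin28a* (817 ± 49.2 TPM) and *Igf2bp1* (305 ± 34.5 TPM), together with *Mycn*, *Lin28b*, *Dnmt3b*, *Sall4*, *Trim71* and *Hmga2*, were all above 100 TPM. By contrast, all 6 genes of pluripotency were under 1 CPM in every pool, with *Pou5f1* at 0.300, 0.577 and 0.431 CPM and *Nanog* at 0.273, 0.373 and 0.458 CPM. The imprinted growth genes were high, with *H19* at 1832 ± 394 TPM, *Mest* at 1062 ± 64.3 TPM and *Grb10* at 619 ± 33.4 TPM. *Igf2* stood at 159 ± 23.8 TPM, but 62.8% of its exon bases are shared with another gene on the same strand.

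The embryonic globins of primitive red cells were abundant, and *Hbb-bh1* was the highest of all the genes listed for a tissue or cell type. The head had no counts of the adult globin genes *Hba-a1*, *Hba-a2*, *Hbb-bs* and *Hbb-bt*. Between 54.8% and 74.5% of their windows occur in another gene, and the rest do not. Leaving out reads that match several genes can lower such counts, but whether it gave these zeros was not tested. The embryonic genes have no windows that occur in another gene. The sequences before the start of *Hba-x* and *Hbb-y* are shown as those of an alpha-type and a beta-type embryonic globin gene, and *Hbb-bh1* is named only. They are the 150 bases before the RefSeq start in GRCm38.p6 (mm10), at chr11:32276450-32276599 on the plus strand for *Hba-x* and chr7:103853208-103853357 on the minus strand for *Hbb-y*, written 5′ to 3′. Capitals mark the letters of 4 short motifs that are named after the sequences.
Hba-x: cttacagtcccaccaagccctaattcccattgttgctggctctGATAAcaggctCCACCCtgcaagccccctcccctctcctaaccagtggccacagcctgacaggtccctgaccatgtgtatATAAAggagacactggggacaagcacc
Hbb-y: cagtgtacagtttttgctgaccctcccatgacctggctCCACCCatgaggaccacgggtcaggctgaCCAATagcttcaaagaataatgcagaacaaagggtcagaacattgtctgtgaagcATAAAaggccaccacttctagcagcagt
Both windows hold CCACCC, the core of the sites bound by factors of the KLF family, at 96 bases before the start in *Hba-x* and 112 in *Hbb-y*. Both also hold ATAAA, part of a TATA box, at 27 and 28 bases before the start. GATAA, the letters that GATA factors bind, was in *Hba-x* alone of the pair, and CCAAT in *Hbb-y* alone. Searched on both strands, in the same window of 32851 RefSeq promoters, the KLF motif was in 19.7%, the letters of the TATA box in 24.1%, the GATA motif in 13.3% and the motif found in *Hbb-y* alone in 24.5%. No match overlapped another. A match of this kind describes letters and not binding.

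In CPM, *Hbb-bh1* (chr7:103841637-103843164) gave 620, 420 and 500, *Hbb-y* gave 456, 200 and 223, and *Hba-x* gave 375, 232 and 262. WT1 was highest for each of them, by 2.15 times over the mean of the other pools for *Hbb-y*, 1.52 times for *Hba-x* and 1.35 times for *Hbb-bh1*. In TPM *Hbb-bh1* made up 52.9% ± 4.8 of the 3 genes, *Hbb-y* 27.8% ± 5.2 and *Hba-x* 19.3% ± 0.51. Of the 20 listed genes of primitive red cells 16 were at 1 CPM or more, among them the haem enzyme *Alas2* (19.7 ± 4.05 TPM), the membrane protein *Slc4a1* (17.6 ± 5.63 TPM) and the factors *Tal1*, *Klf1* and *Gata1*. WT1 was highest in 14 of these 16 genes, against 36.3% of all genes of 1 CPM or more. The other 2 were *Tal1*, at 16.6, 20.2 and 19.1 CPM, and *Fech*, which completes haem, at 30.4, 30.5 and 30.6 CPM, and both were lowest in WT1.

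**Figure D2:**
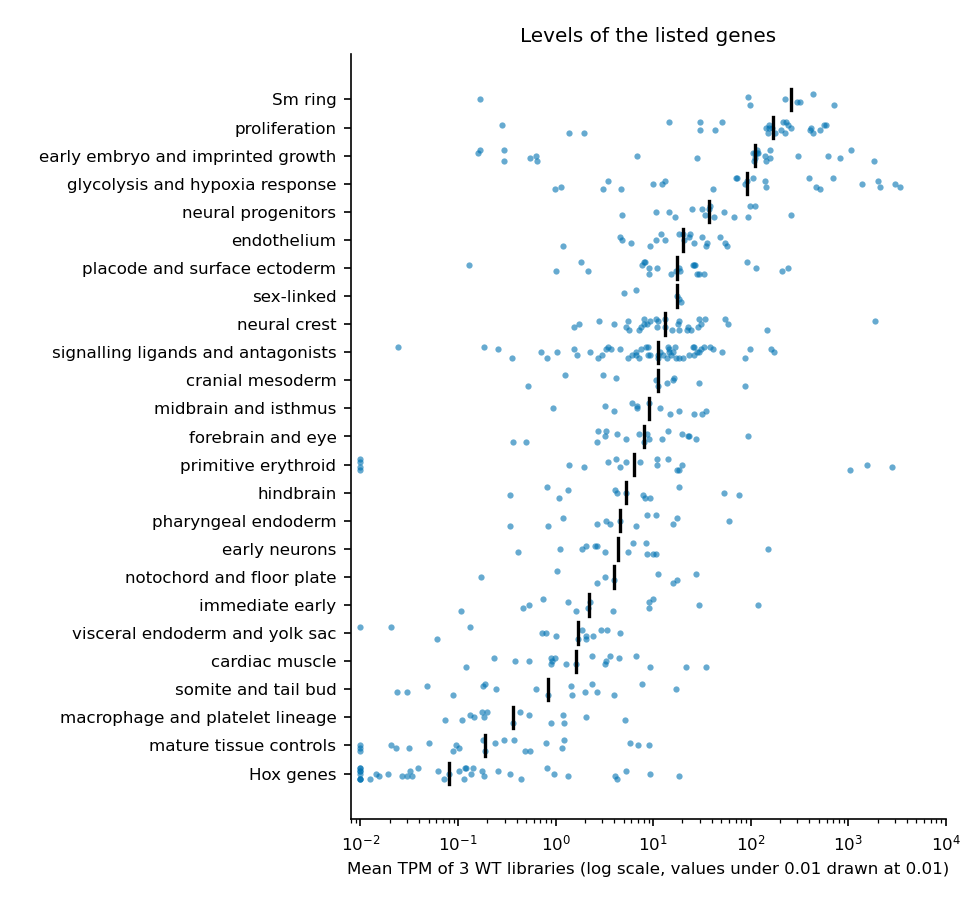
Mean TPM over the 3 WT libraries (log scale) of each gene in the 25 lists, with 1 point a gene and a black bar at the median of the list. Growth lists lie to the right, and Hox genes, mature tissues and blood lineages other than red cells lie to the left. Medians of head tissue lists run from 3.98 TPM (notochord and floor plate) to 37.6 TPM (neural progenitors), with single genes from under 1 TPM to over 100 TPM.

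Genes of every brain region from forebrain to hindbrain were on, at a mean of 1 CPM or more, a level that 53.5% of all genes reached. All 16 genes of neural progenitors were on, led by *Sox2* (chr3:34650405-34652461), which holds cells in the progenitor state, at 261 ± 18.8 TPM, the intermediate filament *Nes* at 111 ± 15.8 TPM and the Notch target *Hes5* at 98.5 ± 18.8 TPM. Of the 19 forebrain and eye genes 17 were on. *Otx2* (chr14:48657677-48673819), which is needed for the forebrain and midbrain, was by far the highest at 95.0 ± 16.4 TPM, followed by *Lhx2* at 27.8 ± 8.74 TPM and *Lhx5* at 23.6 ± 7.73 TPM. *Vax2* and *Nkx2-4* remained under 1 CPM in every pool.

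All 13 genes of the midbrain and isthmus were on. The engrailed genes *En2* (35.1 ± 10.4 TPM) and *En1* (31.6 ± 4.57 TPM) came first, and the signals of the isthmus followed with *Fgf8* at 26.1 ± 4.03 TPM, *Fgf17* at 18.5 ± 8.77 TPM and *Wnt1* at 11.7 ± 2.84 TPM. In the hindbrain list *Irx3* (75.6 ± 1.46 TPM) and the receptor *Epha4* (53.8 ± 3.22 TPM) were highest, both of which are also used elsewhere in the head. The factor *Egr2*, of single rhombomeres, was lower at 8.18 ± 3.23 TPM.

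Genes of early neurons were low, apart from *Tubb3*. This gene, *Tubb3*, of the neuronal tubulin, was at 151 ± 30.8 TPM. The next gene of the list, the motor and sensory factor *Isl1*, was at 10.8 ± 3.29 TPM, and *Stmn2* was at 10.02 ± 0.543 TPM. *Isl1* is also on the list of cranial mesoderm, so its level may not be of neurons alone. The proneural genes *Neurog1* and *Neurog2* stood at 8.57 and 5.53 TPM. *Dcx*, of migrating young neurons, was at 0.408 ± 0.213 TPM and the median of the 14 genes was 4.36 TPM.

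Of the Hox genes, which give positions along the body axis, only those of the front were on. These 39 genes lie in 4 clusters and are numbered by paralogue group, with low numbers used further forward. Groups 1 to 4 held 97.1% of the summed CPM of all Hox genes, and the 27 genes of groups 5 to 13 together gave 1.36, 1.43 and 0.512 CPM. Only 6 genes had a mean of 1 CPM or more, among them *Hoxb1*, *Hoxa2*, *Hoxb2*, *Hoxb3* and *Hoxd3*, the last only through WT2. Both genes of group 2, which pattern the hindbrain, were highest, with *Hoxa2* (chr6:52162417-52164831) at 7.45, 11.7 and 10.4 CPM and *Hoxb2* (chr11:96350525-96354012) at 4.97, 14.4 and 10.2 CPM. Per length *Hoxa2* stood at 18.4 ± 3.63 TPM and *Hoxb2* at 9.35 ± 4.31 TPM. Among the rest, 21 Hox genes were under 0.1 CPM in every pool and 7 had no count at all, which over the 3 libraries allows up to 0.0226 CPM.

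The pools differed in these genes. WT2 was highest and WT1 lowest in *Hoxb1*, *Hoxa2*, *Hoxb2* and *Hoxb3*, which were above 1 CPM in every pool, and the 39 genes summed to 20.1, 58.7 and 34.3 CPM. *Hoxb1* gave 1.64, 4.07 and 2.78 CPM, *Hoxb3* gave 3.17, 10.4 and 6.90 CPM, and *Hoxd3* gave 0.136, 4.45 and 0.593 CPM. *Hoxd4* had 0, 153 and 0 counts, and the summed CPM of group 4 was 0.355, 4.36 and 0.458. *Hoxd3* and *Hoxd4* share 62.4% and 52.3% of their exon bases with another gene on the same strand, and 52.9% of the exon bases of *Hoxb3* lie opposite another gene. *Hoxa10* went the other way, with 17, 17 and 0 counts.

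**Figure D3:**
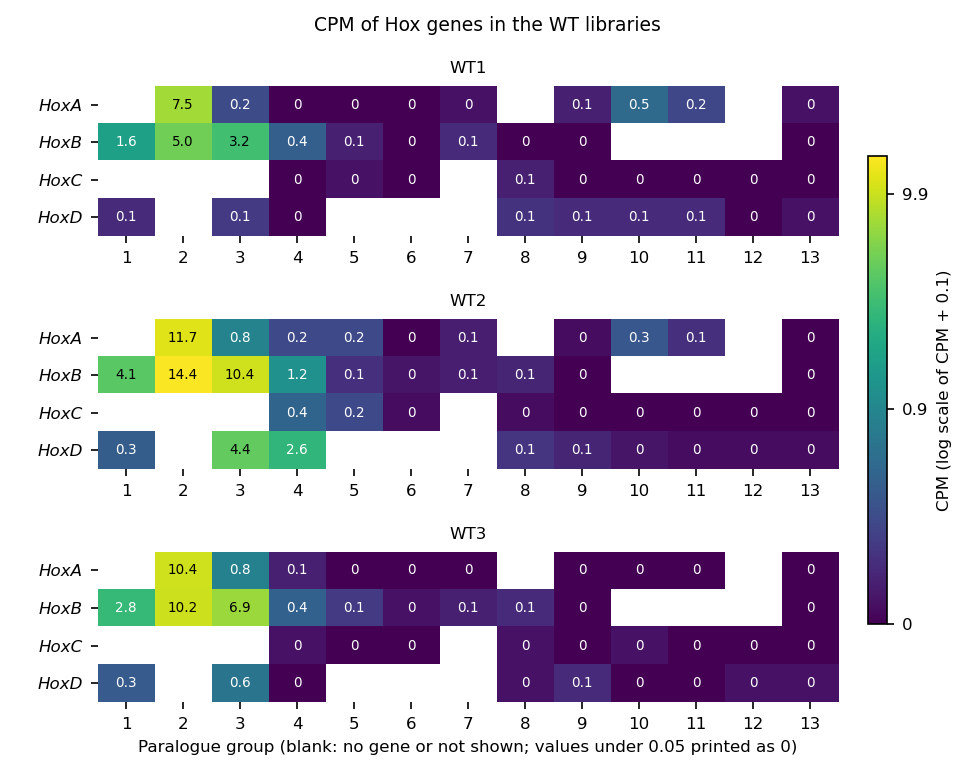
CPM of Hox genes in the 3 WT libraries, with the 4 clusters as rows and the paralogue groups as columns, and colour on a log scale of CPM + 0.1. Signal is limited to groups 1 to 4, apart from traces, and WT2 holds *Hoxb2* at 14.4 CPM where WT1 has 4.97 CPM.

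Neural crest genes were on at every step of the crest programme. Of the 33 listed genes 32 had a mean of 1 CPM or more. *Crabp1* (chr9:54764748-54773110), which binds retinoic acid in migrating crest and hindbrain, reached 1871 ± 184 TPM and was the only listed gene of a head tissue, red cells aside, within the first 100 genes. Among the specifiers *Twist1* (chr12:33957671-33959829) led at 148 ± 18.5 TPM, followed by *Ets1* at 54.6 ± 7.57 TPM, *Zic1* at 34.2 ± 11.2 TPM and *Snai1* at 29.0 ± 1.83 TPM, and *Sox10*, kept by crest that will form glia and ganglia, was at 24.7 ± 5.21 TPM. Among genes of arch mesenchyme *Prrx2* (59.0 ± 10.6 TPM) and *Meis2* (31.0 ± 1.53 TPM) were highest. The one gene under 1 CPM was *Barx1*, at 0.764, 0.577 and 0.836 CPM. Over the list the median log2 difference from the mean of the 3 pools was −0.09 in WT1, −0.04 in WT2 and 0.12 in WT3. WT3 was highest in 21 of the 32 genes, against 31.6% of all genes of 1 CPM or more.

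The *Dlx* genes, which set the pattern of the arches from top to bottom, were at low levels. In order they were *Dlx2* (8.57 ± 1.59 TPM), *Dlx5* (8.03 ± 1.40 TPM), *Dlx6* (5.62 ± 1.64 TPM), *Dlx3* (5.54 ± 0.935 TPM) and *Dlx1* (1.54 ± 0.420 TPM), and *Dlx4* was under 1 CPM. The ranges of the first 4 overlapped from each gene to the next, and *Dlx1* was below *Dlx3* in every pool. *Hand2* of the lower jaw and the heart was at 2.37, 5.12 and 3.67 CPM.

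Genes listed for ectoderm, mesoderm, endoderm and vessels were found. The libraries are of whole heads, so these levels may not be of 1 tissue alone. The keratins *Krt18* (chr15:102028180-102032027) at 243 ± 37.7 TPM and *Krt8* at 208 ± 36.4 TPM led the genes listed for surface ectoderm. *Foxi2* (28.5 ± 3.00 TPM) and *Eya2* (26.7 ± 3.73 TPM) were among the highest listed for the placodes, the thickenings that give rise to sense organs and cranial ganglia. The lens gene *Foxe3* and the otic gene *Oc90* were under 1 CPM in every pool. In the cranial mesoderm list *Cyp26c1*, which breaks down retinoic acid, was at 88.0 ± 7.22 TPM and *Foxc1* at 29.8 ± 2.80 TPM. The muscle factor *Myf5* gave 0.355, 0.424 and 0.189 CPM.

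In the endoderm list *Trh* (59.5 ± 9.51 TPM), *Foxa2* (17.4 ± 0.507 TPM) and *Shh* (15.9 ± 0.367 TPM) were highest. *Foxa2* and *Shh* are shared with the notochord and floor plate, where *Spon1* led at 27.6 ± 1.2 TPM. All 20 endothelial genes were on, from *Egfl7* (57.3 ± 5.30 TPM) and *Plvap* (54.0 ± 3.85 TPM) through the receptor *Kdr* (34.8 ± 2.82 TPM) to *Robo4* (1.18 ± 0.139 TPM). The early factor of vessel and blood formation *Etv2* was still at 26.5 ± 6.51 TPM.

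Among the *Sox*, *Pax*, *Dlx*, *Otx* and sine oculis families, the *Sox* genes had the highest summed level, at 885 TPM over 19 genes. The families differ in size, and *Otx*, of 2 genes, was next at 102 TPM. Other families of transcription factors were not summed. Of 19 *Sox* genes 16 were on, and *Sox2* was ahead of *Sox11* (208 ± 9.95 TPM) and *Sox4* (103 ± 1.83 TPM) in every pool. *Sox3*, *Sox13*, *Sox1*, *Sox12* and *Sox21* followed between 52.8 and 37.4 TPM, with overlapping ranges from each to the next. Of 9 *Pax* genes 8 were on, with *Pax6* (19.9 ± 2.21 TPM) and *Pax3* (18.3 ± 2.92 TPM) first and overlapping, then *Pax8* and *Pax7*, and *Pax2* (0.933 ± 0.352 TPM) and *Pax1* (0.829 ± 0.506 TPM) last. All 6 genes of the sine oculis family were on, among them *Six5* (24.4 ± 2.50 TPM). The forebrain gene *Six3* had the lowest mean, at 2.64 ± 0.566 TPM, and its range overlapped that of *Six2* (3.88 ± 0.949 TPM). *Otx2* exceeded *Otx1* (6.91 ± 2.17 TPM) in every pool and made up 93.2% of the pair.

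Signalling genes were on for most pathways. Of the 55 genes listed for signalling 50 were on, and the median of the 55 was 11.3 TPM. The 15 antagonists had a median of 14.6 TPM, the *Wnt* ligands listed 12.5 TPM and the *Fgf* ligands listed 6.62 TPM. The secreted Wnt antagonists *Sfrp1* (174 ± 3.95 TPM) and *Sfrp2* (162 ± 25.1 TPM) and *Spry2*, a feedback inhibitor of FGF signalling inside the cell, (99.0 ± 3.54 TPM) had higher means than every listed ligand. Of 19 *Wnt* genes 13 were on, and *Wnt5b* (31.2 ± 6.38 TPM), *Wnt6* (26.5 ± 1.35 TPM) and *Wnt7b* (20.1 ± 9.19 TPM) came first with overlapping ranges. Of 22 *Fgf* genes 12 were on, against 53.5% of all genes, with *Fgf8* and *Fgf15* (25.6 ± 10.9 TPM) overlapping at the top. *Bmp7* (28.5 ± 1.49 TPM) was above *Bmp4* (14.3 ± 1.95 TPM) and *Bmp5* (13.9 ± 0.630 TPM) in every pool. Of the hedgehog genes only *Shh* was on, and *Ihh* and *Dhh* were under 1 CPM in every pool.

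Genes of mature tissues were nearly absent. Of 23 such genes 4 (*Mbp*, *Acta1*, *Krt10* and *Camk2a*) had a mean of 1 CPM or more. The liver gene *Alb* had 0, 1 and 1 counts, *Cd3e* of T cells 0, 2 and 0, and *Ins2* and *Cyp3a11* none. The highest was *Mbp*, at 23.8, 24.2 and 21.5 CPM, the gene of myelin basic protein, whose locus also codes for the golli proteins found outside myelin. Macrophage and platelet genes were low too, with 3 of 15 at 1 CPM or more and the pan-leukocyte gene *Ptprc* at 0.655, 0.475 and 0.0809 CPM. Immediate early genes were low as a list, with a median of 2.19 TPM over 14 genes, and ranged among those named from *Ier2* at 119 ± 5.46 TPM to *Fos* at 1.62 ± 0.287 TPM and *Egr1* at 0.736 ± 0.0828 TPM.

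The pools were alike in most genes. Over the 13073 genes with a mean of 1 CPM or more the median CV between the 3 pools was 6.27%, where counting alone would give 2.92%, and 81.8% of the genes spread more than counting would give. The median CV was 12.6% for genes of 1 to 10 CPM, 5.48% for 10 to 100 CPM, 3.97% for 100 to 1000 CPM and 3.52% above that. The common biological coefficient of variation, edgeR's estimate of the spread beyond counting, was 0.0971 over 14504 genes. None of the pools was a copy of another, with a chi-square per degree of freedom between 12.5 and 22.7 after scaling for depth. Labels and methods make these separate pools of embryos, so the spread includes differences between embryos and between preparations.

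**Figure D4:**
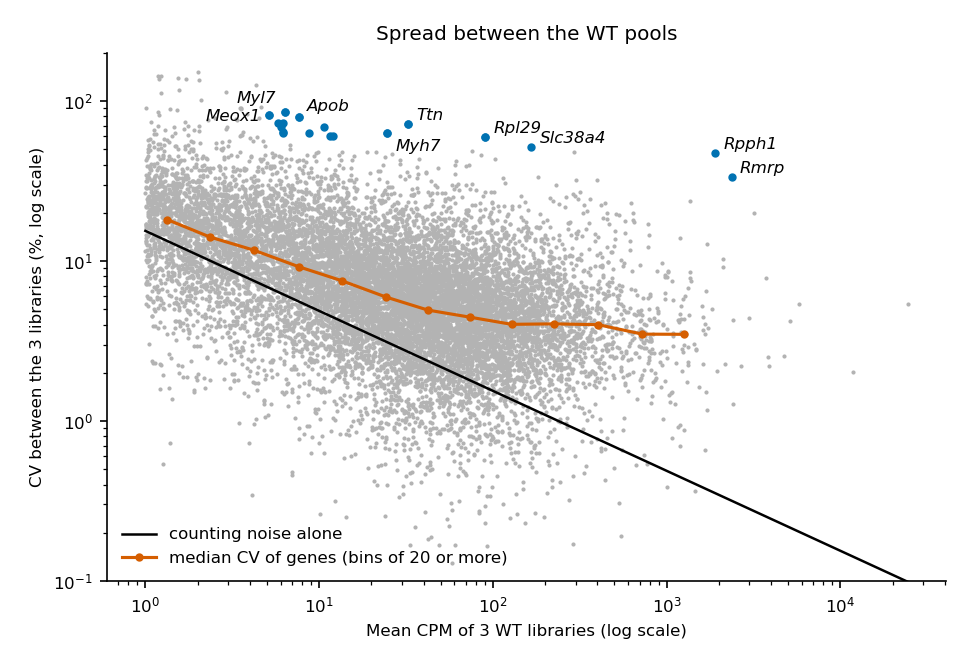
CV between the 3 WT libraries against mean CPM, both on log scales, with 1 grey point a gene of 1 CPM or more, the median in bins of CPM and the CV that counting noise alone gives. Blue points are the 15 genes of 5 CPM or more with the largest CV, together with *Slc38a4*, *Rmrp* and *Rpph1*. The median curve leaves the counting line with rising level and flattens near 4%.

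Cardiac genes were prominent among those that spread most. The 15 with the largest CV among the 10612 genes of 5 CPM or more included 5 of the cardiac list, *Myl7*, *Smyd1*, *Ttn*, *Actc1* and *Myh7*. *Myl7* (chr11:5896637-5898782), the atrial myosin light chain, gave 0.655, 11.5 and 6.88 CPM with a CV of 85.6%. *Ttn*, the giant sarcomere protein, gave 5.68, 48.2 and 44.0 CPM, and the pharyngeal gene *Nkx2-6* gave 0.955, 8.64 and 7.76 CPM. In each of these WT1 was the low pool, and WT2 and WT3 were closer to each other than to it.

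Others of the 15 came from other lists or from none. The somite gene *Meox1* gave 1.34, 9.74 and 4.45 CPM and *Ret*, the receptor of enteric and other neurons, 4.04, 17.9 and 12.6 CPM. The lipoprotein gene *Apob* (chr12:7977648-8016835), which yolk sac endoderm makes, gave 14.6, 3.51 and 4.80 CPM. *A2m*, *Arg1*, *Gm8801* and *Rpl29* were also among the 15, and 41.0% of the windows of *Rpl29* occur in other genes.

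WT1 stood apart from the other pools more often than they did. Taking genes of 5 CPM or more that lay over 1.25 times beyond both other pools, WT1 had 545 (307 above, 238 below), WT2 had 297 (57 above, 240 below) and WT3 had 130 (49 above, 81 below). The median absolute log2 difference was 0.11 between WT1 and WT2, 0.11 between WT1 and WT3 and 0.08 between WT2 and WT3. Without WT1 the common coefficient of variation was 0.0711, without WT2 0.0978 and without WT3 0.125.

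The differences had a direction by tissue list. Of the 17 tissue and cell type lists, 12 had a pool whose median log2 difference from the mean of the 3 was over 0.2 in size, and WT1 was such a pool in all 12, above in 6 and below in 6. WT2 was such a pool in 7 lists and WT3 in 2, and in early neurons WT2, at −0.26, was nearly as far from the mean as WT1. The lists that were higher in WT1 were forebrain and eye (0.25), midbrain and isthmus (0.32), neural progenitors (0.22), early neurons (0.30), primitive red cells (0.25) and visceral endoderm and yolk sac (1.14). All 16 neural progenitor genes were highest in WT1, as were 14 of 17 forebrain genes and 11 of 13 midbrain genes, against 36.3% of all genes. *Otx2* gave 140, 109 and 111 CPM, *Wnt7b* 43.9, 22.2 and 22.0 CPM and *Lhx2* 48.5, 30.5 and 30.3 CPM.

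The lists that were lower in WT1 were cardiac muscle (−1.50), hindbrain (−0.67), pharyngeal endoderm (−0.30), somite and tail bud (−0.27), surface ectoderm and placodes (−0.24) and cranial mesoderm (−0.24). In the somite and tail bud list only the somite part was low, and 4 of the 8 genes at a mean of 1 CPM or more were lowest in WT1. The 3 somite genes at that level had a median of −0.86 in WT1, and the 5 tail bud genes had 0.005. The 9 tail bud genes of the list had their highest sum in WT1, at 22.8 CPM. All 9 genes of cranial mesoderm at a mean of 1 CPM or more were lowest in WT1, against 39.8% of all genes. In most of the 12 lists at least 1 gene (7 in the cardiac list) was under 1 CPM in some pool and passed through the others, which can enlarge the medians, so sums over all members are given as well. The 13 hindbrain genes summed to 206, 277 and 254 CPM and the 13 genes of pharyngeal endoderm to 86.4, 97.1 and 98.8 CPM. Most of the hindbrain sum came from *Epha4* (118, 135 and 138 CPM) and *Irx3* (59.8, 65.4 and 62.9 CPM), which are also used elsewhere in the head. The 17 somite and tail bud genes summed to 26.6, 35.6 and 27.3 CPM, where WT1 was close to WT3 and WT2 was high. Of these, the 8 somite genes summed to 3.77, 14.8 and 8.25 CPM. The 14 genes of early neurons summed to 186, 139 and 152 CPM. *Egr2* gave 4.59, 11.4 and 9.19 CPM, *Tbx1* 7.51, 15.2 and 12.9 CPM and *Epcam* 44.9, 64.7 and 71.4 CPM. The summed CPM of the 19 cardiac genes was 28.4, 170 and 139, which is 5.44 times higher in the mean of WT2 and WT3 than in WT1.

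**Figure D5:**
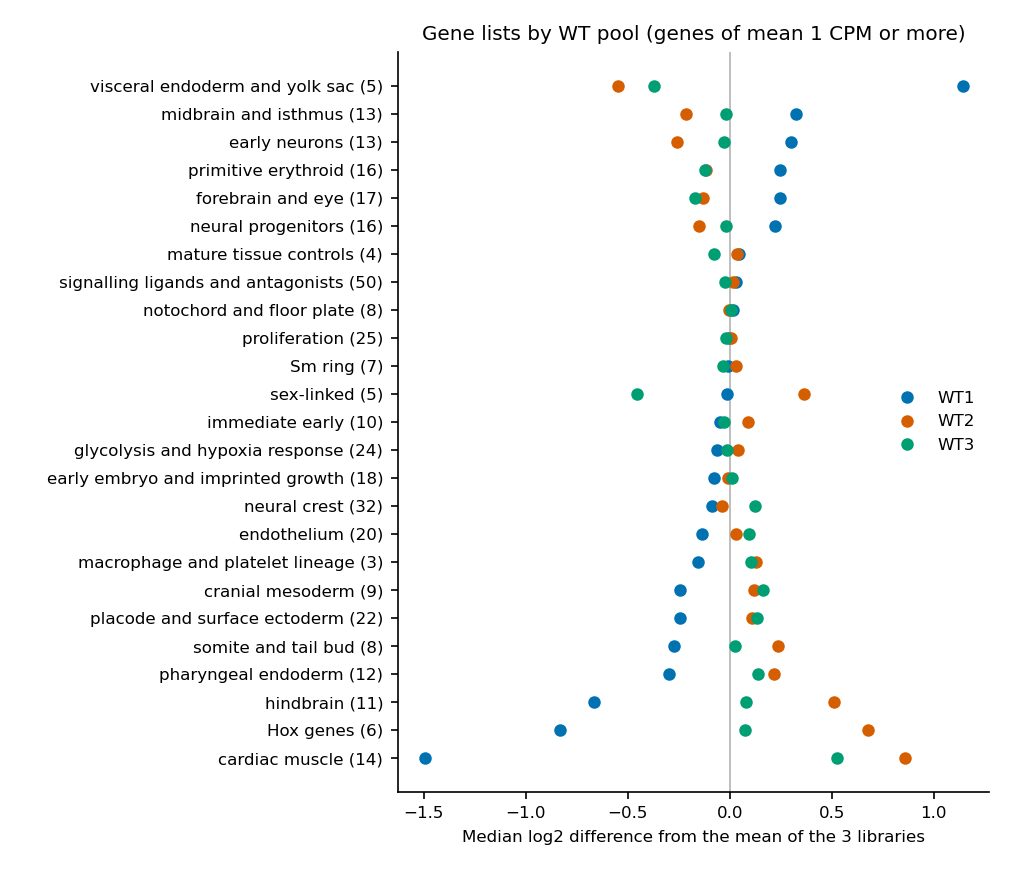
Median log2 difference from the mean of the 3 pools, for the genes of 1 CPM or more in each list (their number in brackets), with 1 point a pool. WT1 lies at −1.50 for cardiac muscle and −0.67 for hindbrain and at 1.14 for visceral endoderm and yolk sac, while proliferation, the signalling list as a whole and the notochord list lie within 0.05 of 0 in all 3 pools.

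The yolk sac list rested on few genes and low levels. Of 15 genes 5 had a mean of 1 CPM or more, *Afp* only through WT1, and the sum over all 15 was 41.5, 12.8 and 11.7 CPM. *Afp*, a serum protein of visceral endoderm, gave 5.51, 0.390 and 0.135 CPM, *Cubn* 7.18, 1.78 and 1.62 CPM and *Apoa1* 2.10, 0.305 and 0.216 CPM. The globins were highest in the same pool, and the part of yolk sac tissue in that result was not tested. The 4 transcription factors of red cells summed to 29.7, 30.4 and 30.1 CPM, where *Klf1* (5.60, 4.56 and 4.88 CPM) and *Gata1* (3.79, 2.88 and 3.37 CPM) were highest in WT1 and *Tal1* was lowest there.

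Some lists hardly differed between the pools. The median log2 differences of the 25 proliferation genes lay between −0.02 and 0.01 and those of the notochord and floor plate genes within 0.02 of 0. *Foxa2* gave 12.4, 12.3 and 12.4 CPM. The signalling genes had medians between −0.02 and 0.03 that covered groups of different direction. The listed *Wnt* ligands stood at 0.27, −0.14 and −0.16 and summed to 194, 140 and 139 CPM, and the listed *Fgf* ligands stood at 0.19, −0.14 and −0.05 and summed to 72.8, 49.1 and 49.3 CPM. The 7 common Sm genes, which encode the protein ring of the spliceosomal particles and include *Snrpb* at 427, 437 and 413 CPM, lay between −0.03 and 0.03. *Snrpn* was at 0.136, 0.0848 and 0.108 CPM. Its level is uncertain, since 27.3% of its exon bases are shared with another gene on the same strand and 16.1% of its windows occur in other genes.

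WT2 and WT3 had marks of their own. WT2 was high in *Rpl29*, *Arg1*, *Meox1*, *Rps15a-ps6* and *Dact2*, and low in *Wfdc1*, *Onecut2* and the largest subunit of RNA polymerase II, *Polr2a*, at 113, 38.7 and 76.7 CPM. WT3 was high in the amino acid transporter *Slc38a4*, an imprinted gene, at 106, 129 and 265 CPM, in *Ikbke* at 23.3, 21.4 and 42.8 CPM and in *Gm7120*, and low in *A2m*, *Gm8801* and *Aldh1a2*, which makes retinoic acid, at 6.52, 8.16 and 3.26 CPM. The Y-linked genes *Uty* (23.2, 24.3 and 11.7 CPM) and *Kdm5d* (29.2, 25.1 and 13.3 CPM) were also low in WT3, and *Xist*, which is transcribed from the inactive X chromosome, was high there at 86.3, 69.5 and 154 CPM. Both *Xist* and the Y-linked genes were present in every pool.

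The pools also differed slightly by base composition and length. Over the protein-coding genes of 1 CPM or more, the fifth with the lowest GC content had a median log2 difference of −0.05 in WT1 and 0.04 in WT3, and the fifth with the highest had 0.04 and −0.04. The fifth with the longest transcripts stood at −0.05 in WT2. When the median of genes of like GC content and length was subtracted, the cardiac list in WT1 stood at −1.57, the hindbrain list at −0.69, the midbrain list at 0.27 and the yolk sac list at 1.17. The neural progenitor list went from 0.22 to 0.19, which left 11 lists in place of 12 with a pool over 0.2.

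Among RNAs that code for no protein, *Rn45s*, the ribosomal RNA precursor, took 2.31%, 2.51% and 2.51% of the counts and was the largest row of the table. *Rmrp* (27934 ± 8896 TPM), the RNA of RNase MRP, and *Rpph1* (19626 ± 8907 TPM), that of RNase P, had the largest CVs of all genes with a mean of 1000 CPM or more. *Rmrp* gave 1528, 2477 and 3094 CPM and *Rpph1* gave 1048, 2837 and 1796 CPM. Together they held 2.99%, 5.78% and 5.50% of the TPM, which lowers the TPM of all other genes by those shares, but 0.259%, 0.531% and 0.486% of the counts. Of the windows of *Rmrp* 94.5% and of those of *Rpph1* 60.9% occur in another gene's transcripts. *Malat1* of nuclear speckles was at 376 ± 55.6 TPM, *Gas5* at 247 ± 13.02 TPM and *Meg3* at 6.77 ± 1.6 TPM.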

How the data were processed

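The deposited values are raw counts per gene symbol, made by the authors from trimmed reads mapped to mm10 with STAR. The labels name featureCounts for the counting and the methods of the study name HTSeq with Gencode M2, and the strand setting is not given in the sources used here. The 3 WT columns were used and the 3 heterozygous columns left out. Library sizes were scaled with TMM in edgeR (version 4.0.16, R version 4.3.3). Of the 24421 symbols 23376 matched Gencode M21 by name, 643 by a RefSeq synonym and 402 not. TPM used the union of exons and left out genes shorter than 200 bases and unmatched symbols, leaving 22697. Log2 differences used CPM + 0.5. With a single group there was no comparison and no test, and WT values stand as mean ± SD of 3 pools. No row matched the mitochondrial chromosome, so the planned mitochondrial share was not computed. Shared sequence was measured on the longest M21 transcript. Genes were named by rule: the 25 protein-coding genes highest in TPM, the 2 to 4 highest and the lowest members of each list, Hox genes, whole families, the 15 largest CVs and the 8 genes farthest from the others in each pool. Other members are named for their values. The members and lists were chosen with earlier results of these data known. The functions were tested on simulated data. Some genes of the lists are counted but not reported here by name.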

Additional observations from a re-analysis of the deposited data

How the results depend on the processing

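The number of genes at 1 CPM or more in every pool lay between 12498 and 13631 with library size or DESeq2 size factors (DESeq2 version 1.42.0) in place of TMM, with 0.5 CPM, or with 1 TPM, and between 12802 and 12845 when 1 pool was left out. The share of counts in the 100 most abundant genes fell from 19.03% to 17.1% without *Rn45s*, an alternative chosen after seeing the data, by construction, and lay between 18.8% and 19.3% with 1 pool left out. The median CV lay between 5.02% and 8.74% under the other filters and scalings and was 4.19% without WT1, 5.66% without WT2 and 5.55% without WT3. The common coefficient of variation was 0.102 with no filter and lay between 0.0711 and 0.125 with 1 pool left out. Of the 17 tissue lists, 12 had a median above the 50th percentile by TPM and 13 by CPM. The 21 list differences over 0.2 kept their sign with library size, with DESeq2 size factors and after subtracting the median of genes of like GC content and length, a choice made after seeing the data, and the last moved any list by at most 0.07. The lists with a pool over 0.2 numbered 12 with all 3 scalings and 11 after that subtraction, where neural progenitors fell under it. The planned share without mitochondrial genes could not be run. No paired analysis was possible because only 1 group was described. Under about 10 CPM counting noise was a large part of the spread, and with 3 pools each SD is itself imprecise.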

Other observations

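The most even genes of 100 CPM or more included genes of DNA repair and splicing. *Msh6*, of mismatch repair, gave 291, 291 and 290 CPM, the splicing factor *Sf3b2* 547, 546 and 545 CPM, the histone chaperone *Dnajc9* 153, 152 and 153 CPM, and the co-chaperone *Stip1* 529, 531 and 532 CPM. For *Msh6* the CV of 0.169% was below the 0.904% that counting alone gives, and these genes were chosen after their values were seen. Enzymes of retinoic acid metabolism spanned a wide range. Of those that make it, *Aldh1a3* stood at 29.4 ± 6.66 TPM, *Aldh1a2* at 8.80 ± 3.62 TPM and *Aldh1a1* at 0.811 ± 0.138 TPM, and of those that remove it, *Cyp26c1* at 88.0 ± 7.22 TPM, *Cyp26a1* at 14.6 ± 2.83 TPM and *Cyp26b1* at 8.53 ± 3.16 TPM.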
